A study of Mus musculus with 4 samples.

Results

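The genes described here are 8 of the 55487 genes in the deposited tables. They encode 5 ligands of the receptor NKG2D (Ulbp1, Raet1d, Raet1e, H60b and H60c) and 3 nonclassical MHC molecules (H2-T3, Cd1d1 and Mr1). The genes were listed by name. Ulbp1 was chosen by its measured fall between the 2 groups compared below, so its change is given as a description and without a test. The other 7 were taken as stress or nonclassical ligands that an intestinal epithelial cell can show to lymphocytes.

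The experiment asked how miR-181a-5p alters gene expression in the intestinal epithelium. Mouse small intestinal (SI) organoids, which are epithelial cultures grown from isolated crypts in IntestiCult medium, received a lentivirus that carried a miR-181a-5p mimic (MLMIR0085) or a miRNA mimic control (NCLMIR002). All cultures, the controls included, were selected in puromycin at 2 μg/ml. RNA-seq gave 2 libraries with the mimic control, replicates 1 and 2, and 2 with the miR-181a-5p mimic, replicates 3 and 4, all labelled as intestinal epithelium. The strain and age of the mice behind these organoids are not given in the sources used here, nor is it stated whether replicates were separate infections, so p-values measure only the spread between these samples, which may be technical. The level of the mature miRNA is not among the values used here.

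NKG2D is an activating receptor of natural killer cells and of some T cells, including intraepithelial lymphocytes of the gut. Its ligands are surface proteins related to MHC class I that do not present peptide and that cells raise under stress, DNA damage or rapid division. Nonclassical MHC molecules vary little between individuals and bind lipids, small metabolites or receptors of lymphocytes directly. A miRNA lowers mRNAs that pair with its seed, bases 2 to 8 from its 5′ end, most often in the 3′ UTR.

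The mature miRNA supplied by the mimic is shown first, because the letters that pair with its seed are those searched for in the genes below. The sequence is from RefSeq on GRCm38.p6, is 23 bases long and is encoded at chr1:137966468-137966490 (Mir181a-1, plus strand) and chr2:38852741-38852763 (Mir181a-2, plus strand). Capitals mark the seed.
miR-181a-5p: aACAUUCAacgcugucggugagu

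A 7mer-m8 site, which pairs with the whole seed, reads TGAATGT in the mRNA. An 8mer adds an A after it, a 7mer-A1 is GAATGT followed by A, and a 6mer is GAATGT alone. A 6mer was counted only where no longer site overlapped it, and only the mRNA strand was searched. In the longest annotated 3′ UTR (GENCODE release 21 for mouse, GRCm38) only H2-T3 and Mr1 held any of these among the 8 genes. The sites are shown with their flanks, 29 bases in all, read in the direction of the mRNA on the minus strand, with the matching letters in capitals. The H2-T3 sites lie at chr17:36185864-36185870 and chr17:36186047-36186052, and the Mr1 site at chr1:155128856-155128861.
H2-T3 7mer-m8: aaaaaagaatcTGAATGTggaggctggag
H2-T3 6mer: acatgagaatcaGAATGTggatgtcaggc
Mr1 6mer: tttctctcctgaGAATGTttaccatgtaa

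The 3′ UTR of Ulbp1 is 5189 bases long, the longest of the 8, and held none of the 4 kinds of site. Of 673 tested genes whose 3′ UTR was within 1.25-fold of that length, 77.6% held at least 1. None of the 5 annotated Ulbp1 transcripts held GAATGT anywhere along its length. A search of this kind says only which letters are present, not whether a transcript is bound. H60c, with a 3′ UTR of 2027 bases, also held no site, against 48.9% of 2159 tested genes of similar length. Cd1d1 (746 bases), Raet1d and Raet1e (387 bases each) and H60b (100 bases) held none either, where 22.2%, 12.4% and 3.75% of tested genes of similar length held 1 or more. The H2-T3 3′ UTR of 999 bases held the 2 sites shown, against any site in 31.6% of its length class, and Mr1 (1389 bases) held 1 against 39.6%. Over all 12847 tested genes with a 3′ UTR of at least 50 bases, 18.4% held an 8mer or 7mer-m8 and 36.1% held any site. In coding sequence, H60b and H60c each held a 7mer-m8 and a 6mer and Raet1d a 6mer.

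**Figure D1:**
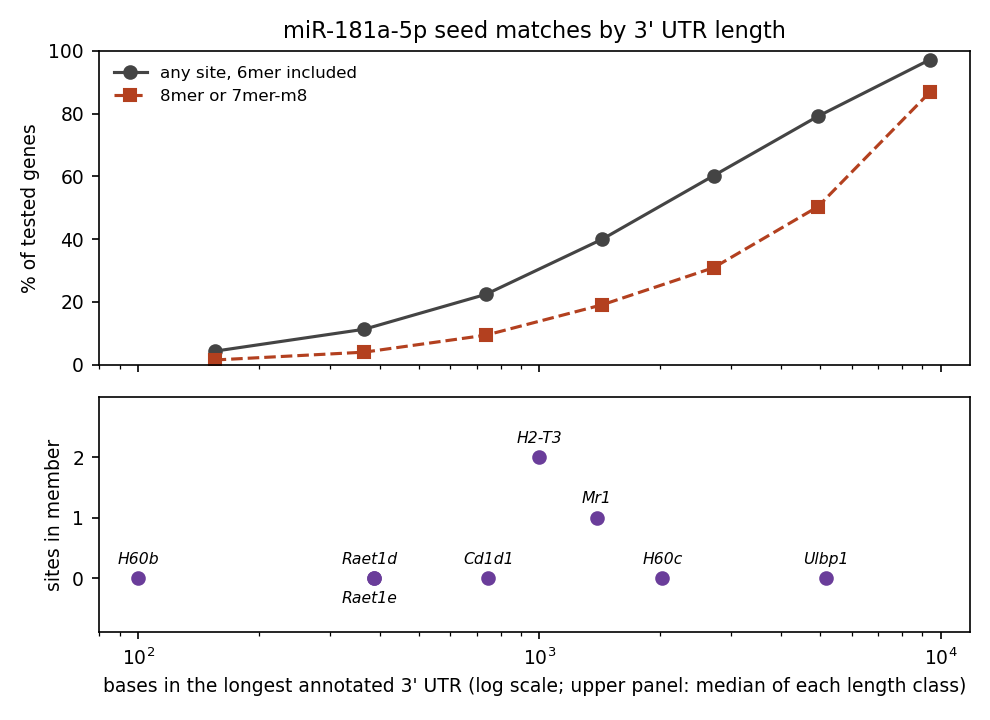
Upper panel: percent of tested genes (y axis) with a miR-181a-5p seed match in the longest annotated 3′ UTR, by the median 3′ UTR length of 7 length classes (x axis, bases, log scale), for any site and for 8mer or 7mer-m8 sites. Lower panel: number of sites (y axis) in each of the 8 genes against its 3′ UTR length on the same axis. Sites become more frequent with length, whereas Ulbp1, at 5189 bases, held 0 and H2-T3, at 999 bases, held 2.

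The libraries held between 31104884 and 38111731 expected counts, and 17155 genes passed the filter on low counts. The deposited expected counts were tested with edgeR's quasi-likelihood test, and a gene was called at a fold change of at least 2 with a Benjamini-Hochberg adjusted p under 0.05, which 354 genes (2.06%) met. Of these, 253 were lower and 101 higher with the mimic. Of the 10 epithelial markers examined, all were detected, with a summed level of 3430 and 3530 TPM in the controls and 3170 and 3730 TPM in the mimic libraries, so the labelled cell type was borne out. TPM is a level per transcript length and is used here whenever 1 gene is set beside another. Normalised CPM is the count scaled to library size and TMM factor and is used for 1 gene across libraries. In bulk samples, fewer cells that express a gene and less RNA per cell cannot be told apart.

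Only 4 of the 8 genes, Ulbp1, Raet1e, H2-T3 and Cd1d1, passed the filter. Of the 3 tested besides Ulbp1, 0 were called lower, where 1.47% of all tested genes were called lower, and 0 were called higher, where 0.589% were called higher. With so few genes these shares allow no reading of the 0. The counts were also 0 and 0 in each of 17 alternative fits, where a gene without an adjusted p counted as not called. Cd1d1 had no adjusted p in DESeq2 or in the filtered log2(TPM) fits. The log2 fold changes of the 3 lay between -0.89 (Raet1e) and 0.50 (Cd1d1) over these fits. As none reached 2-fold, the repeated 0 was all but fixed and adds no support. Before adjustment 1 of these 3, Raet1e, had an edgeR p under 0.05, against 4250 of the 17155 tested genes.

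Ulbp1 (ENSMUSG00000079685, GRCm38 chr10:7440362-7473638, minus strand) encodes MULT-1, a transmembrane ligand that binds NKG2D tightly. Control libraries held 384 and 269 expected counts of it, mimic libraries 44 and 43. The exact 95% Poisson intervals of these counts, which cover counting error only, ran from 347 to 424, 238 to 303, 32 to 59.1 and 31.1 to 57.9. Both mimic libraries lay below both controls, and they were almost equal to each other.

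In normalised CPM Ulbp1 stood at 10.02 and 8.68 in the controls and at 1.40 and 1.21 with the mimic, or 9.35 ± 0.944 against 1.31 ± 0.139 (mean ± SD, n = 2 each). The fitted log2 fold change was -2.84 with a standard error of 0.22, which is a level 7.17-fold higher in controls. In TPM it went from 3.47 and 2.94 to 0.41 and 0.40. Its annotated sequence is nearly all its own, since 17 of its 6868 distinct 100-base stretches (0.248%) occur in another annotated gene. Where its reads lay was not examined.

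**Figure D2:**
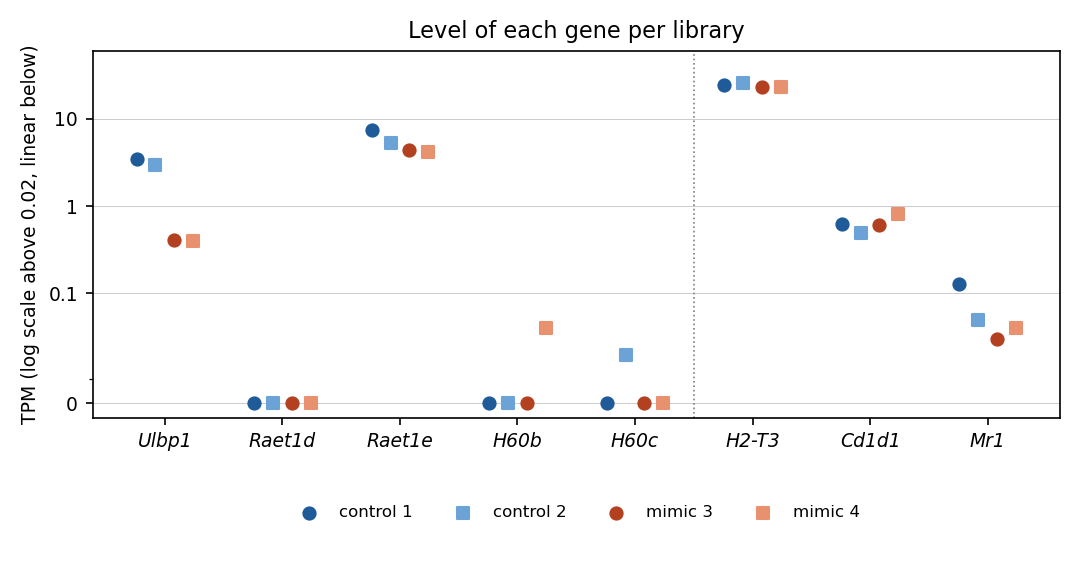
TPM (y axis, log scale above 0.02 and linear below) of each of the 8 genes in the 2 control libraries (blue) and the 2 miR-181a-5p mimic libraries (red), 1 point per library, with NKG2D ligands left of the dotted line. Ulbp1 is near 3 TPM in controls and at 0.41 and 0.40 TPM with the mimic, while H2-T3 stays between 22.9 and 25.9 TPM.

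Raet1e (ENSMUSG00000053219, GRCm38 chr10:22158569-22374139, plus strand) encodes RAE-1ε, a GPI-anchored ligand of NKG2D. Its expected counts were 307 and 179 in the controls and 140 and 149 in the mimic libraries, and its TPM was 7.40 and 5.27 against 4.35 and 4.20. The mimic libraries were both lower than the controls, but control replicate 1 stood well above control replicate 2.

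The normalised CPM of Raet1e was 6.89 ± 1.58 in controls and 4.33 ± 0.201 with the mimic. The log2 fold change of -0.68 (standard error 0.22, 95% interval -1.19 to -0.16) did not pass the test over all genes, with an adjusted p of 0.12 by edgeR's quasi-likelihood test. Without control replicate 1 it was -0.43 (edgeR adjusted p = 0.413) and without control replicate 2 it was -0.89 (edgeR adjusted p = 0.0307), still short of a 2-fold change. Both mimic libraries lay below both controls, by whatever margin, in 29.5% of all tested genes, and with 2 libraries a group an exact permutation test of 1 gene cannot go below p = 0.333.

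Raet1d (ENSMUSG00000078452, GRCm38 chr10:22360552-22374139, plus strand) encodes RAE-1δ and is the closest relative of Raet1e in the set. It had 0 counts in all 4 libraries, which allows up to 3 counts in each, or 0.0787 to 0.0964 CPM. The coding sequences of Raet1d and Raet1e are 93.6% identical, and 478 of the 1340 distinct 100-base stretches of Raet1d (35.7%) also occur in Raet1e, so a read of 100 bases often could not tell them apart. The annotated span of Raet1e also covers both Raet1d and H60b. Expected counts of Raet1e were whole numbers in every library. With Raet1d estimated at 0, shared reads are given wholly to Raet1e, so whole numbers cannot check that assignment. The stretch below, from the coding sequences of both genes in the same annotation, is shown because it is one where reads from them can be separated. Capitals mark letters that differ in the other gene or are absent from it, with 3 substitutions and a gap of 6 bases between coding bases 241 to 270 of Raet1d and 253 to 276 of Raet1e. The Raet1d stretch also holds the GAATGT of its coding 6mer, which Raet1e lacks.
Raet1d: actGAAGTGggGGaatgtttAacacaacct
Raet1e: actggCAaatgtttGacacaacct

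H60b (ENSMUSG00000075297, GRCm38 chr10:22158586-22288849, plus strand) and H60c (ENSMUSG00000091618, GRCm38 chr10:3256208-3267771, minus strand) are the remaining NKG2D ligands of the set. H60c is best known from skin keratinocytes. H60b had 0, 0, 0 and 1 count in control replicates 1 and 2 and mimic replicates 3 and 4, and H60c had 0, 1, 0 and 0. Both were at or under the floor of 3 counts in every library, so no fold change is given and no difference was detectable at this depth. Their coding sequences are 63.2% identical, and few of their 100-base stretches are shared with other genes (3.21% and 3.46%). The symbols Raet1a, Raet1b, Raet1c and H60a, genes that some mouse strains carry, matched no gene in the deposited data, so they could not be measured. The strain is not given, so whether these organoids carry them is not known. Whether reads from such genes were counted under Raet1e or Raet1d was not tested.

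Among the 5 NKG2D ligand genes of the set, transcripts as counted therefore came almost wholly from 2. Summed over the 5 genes, their level was 10.9 and 8.23 TPM in the controls and 4.76 and 4.64 TPM with the mimic. Raet1e made up 68.1% and 64.0% of that sum in controls and 91.4% and 90.5% with the mimic, and Ulbp1 made up 31.9% and 35.7% against 8.61% and 8.62%. The ratio of Ulbp1 to Raet1e in TPM was 0.469 and 0.558 in controls and 0.0943 and 0.0952 with the mimic, so Ulbp1 was lower than Raet1e throughout and lower still with the mimic. These sums and ratios contain Ulbp1 and so describe the change for which it was chosen.

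**Figure D3:**
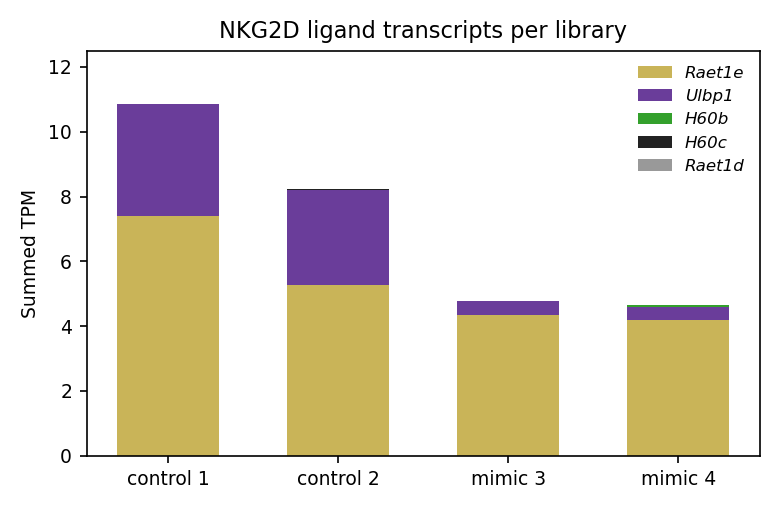
Summed TPM (y axis) of the 5 NKG2D ligand genes in each of the 4 libraries (x axis), stacked by gene. The stack reaches 10.9 and 8.23 TPM in the controls and 4.76 and 4.64 TPM with the mimic, and is nearly all Raet1e in the mimic libraries.

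H2-T3 (ENSMUSG00000054128, GRCm38 chr17:36185572-36190287, minus strand) encodes TL, the thymus leukaemia antigen, which is abundant on epithelial cells of the small intestine and binds CD8αα on intraepithelial lymphocytes. It had 1576 and 1338 rounded counts in the controls and 1216 and 1259 in the mimic libraries, and a TPM of 24.4 and 25.9 against 22.93 and 22.95. It was by far the highest of the 8 genes, with a mean TPM above that of 71.8% of tested genes. The mimic libraries were both a little lower.

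In normalised CPM H2-T3 was 42.1 ± 1.46 in controls and 37.1 ± 2.45 with the mimic. The log2 fold change of H2-T3 was -0.18 (standard error 0.11, 95% interval -0.43 to 0.07), and the adjusted p by edgeR's quasi-likelihood test was 0.325. The interval reaches down to a level 1.35-fold higher in controls, so a fall of 2-fold lies outside it. Smaller falls and no change both lie within it. H2-T3 is also the only 1 of the 8 genes with a 7mer-m8 in its 3′ UTR, shown above. Its expected counts were not whole in 3 of the 4 libraries, and none of its 3485 distinct 100-base stretches occurs unchanged in another annotated gene.

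Cd1d1 (ENSMUSG00000028076, GRCm38 chr3:86995834-86999441, minus strand) encodes CD1d, which presents lipids to natural killer T cells. Its counts were 26 and 13 in control libraries against 17 and 23 in mimic libraries, and a TPM of 0.63 and 0.49 against 0.60 and 0.81. The groups overlapped in both scales. The log2 fold change was 0.09 (standard error 0.40, edgeR adjusted p = 0.91), and its 95% interval of -0.85 to 1.03 is wide enough to hold a change of nearly 2-fold in either direction. The sign turned when control replicate 2 (-0.18) or mimic replicate 4 (-0.04) was left out. Its copy Cd1d2 was at 0 in all libraries, and 10.5% of the 100-base stretches of Cd1d1 occur in Cd1d2.

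Mr1 (ENSMUSG00000026471, GRCm38 chr1:155127277-155146814, minus strand) encodes MR1, which presents microbial riboflavin metabolites to mucosal-associated invariant T cells. Its counts were 10 and 2 in control libraries against 1 and 3 in mimic libraries, and a TPM of 0.13 and 0.05 against 0.03 and 0.04. The groups overlapped in counts. In TPM they did not, by the small margin of 0.05 in control replicate 2 against 0.04 in mimic replicate 4. Mr1 did not pass the filter, so it was not tested.

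Per length, the order in controls was H2-T3, Raet1e, Ulbp1, Cd1d1 and Mr1, and the TPM ranges of neighbours in this order did not overlap, after which came H60c, H60b and Raet1d at or near 0. With the mimic Ulbp1 stood below Cd1d1, at a ratio of 0.683 and 0.494, where it had been 5.51 and 6 times Cd1d1 in the controls. In the mimic libraries Mr1 and H60b were the only neighbours with a level above 0 whose ranges overlapped. H2-T3 made up 97.0% and 98.0% of the summed TPM of the 3 nonclassical genes in controls and 97.3% and 96.4% with the mimic.

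The genes whose profile over the 4 libraries was most like that of Ulbp1, by root mean square distance of centred log2 normalised CPM among 13767 genes, were 3 non-coding genes. These were 5330426L24Rik, a lincRNA of chromosome 14 (distance 0.104, counts of 479 and 344 against 54 and 64), Plut, an antisense RNA beside Pdx1 on chromosome 5 (distance 0.205, counts of 77 and 76 against 9 and 7), and Gm35572, a lincRNA of chromosome 8 (distance 0.284, counts of 133 and 69 against 12 and 18). They are likenesses over 4 libraries that share the contrast by which Ulbp1 was picked.

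Of the 10 tested genes next to Ulbp1 on chromosome 10, none had a value near that of Ulbp1. The nearest tested gene on its left, Cnksr3, a scaffold protein 228.1 kb away, was at -0.45 on the log2 scale (standard error 0.17, edgeR adjusted p = 0.159), with both mimic libraries below both controls. The nearest on its right, Lrp11, at 116.2 kb, had 0.01, and Pcmt1, Nup43, Lats1 and Katna1 beyond it lay between -0.02 and 0.17. On the far left Armt1, Fbxo5 and Mtrf1l lay between -0.07 and 0.18, and Rgs17 was at -0.49 (standard error 0.41). None of the 10 passed the test.

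**Figure D4:**
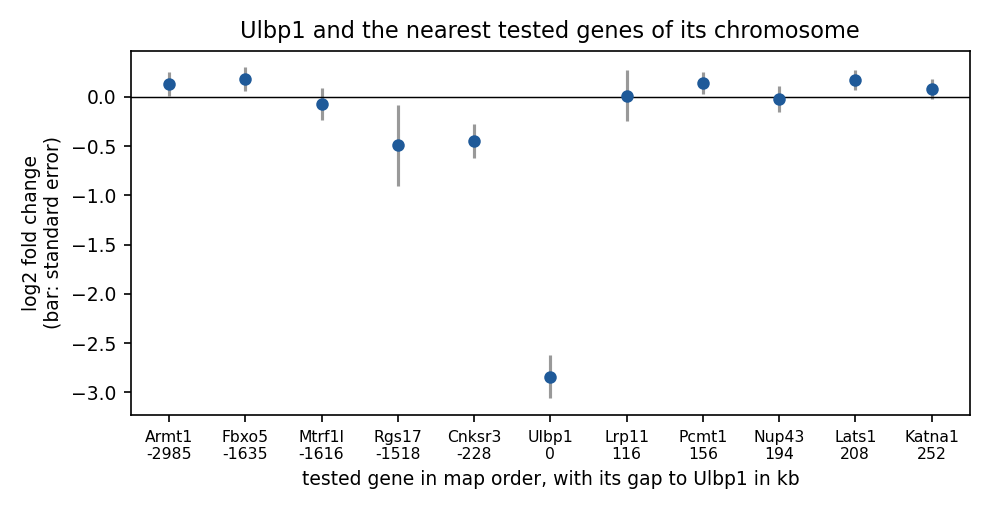
Fitted log2 fold change, mimic over control (y axis, bar: standard error), of Ulbp1 and the 5 nearest tested genes on each side of it in map order (x axis, with the gap to Ulbp1 in kb). Ulbp1 is at -2.84 and its 10 neighbours lie between -0.49 and 0.18.

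The genes that act around these ligands were taken as lists, and the counts below are of tested genes. They are to be read against a median log2 fold change of -0.01 over all tested genes. Of all tested genes, 2.29% were at an adjusted p under 0.05 and lower and 1.28% higher. The lists were drawn up with earlier results of these data known, so their shares are descriptions and no test of a list. Among 6 genes of ligand turnover and shedding, 0 fell and 0 rose by edgeR's adjusted p, with a median of 0.15 and all 6 above 0 under each scaling. The highest expressed were Pdia6, a disulfide isomerase (0.10), and Adam10, a sheddase (0.19). March9, a ubiquitin ligase that acts on MULT-1 and was picked for mention after its values were seen, had counts of 310 and 295 in controls against 442 and 438 (log2 fold change 0.59, standard error 0.16, edgeR adjusted p = 0.0893). Its mimic libraries both lay above both controls, as in 28.9% of all tested genes, and its value did not pass the test. With 1 library left out its log2 fold change ranged from 0.46 (without control replicate 1) to 0.71 (without control replicate 2).

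Among 10 regulators of ligand genes, 0 passed the test, with a median log2 fold change of 0.18. All 10 were above 0, where 8333 of the 17155 tested genes lay above 0, except that 1 was below 0 with upper-quartile factors. Both mimic libraries lay above both controls in 6 of the 10 and below them in 0, against 28.9% and 29.5% of all tested genes. The largest change was in E2f2 (0.60, standard error 0.13, edgeR adjusted p = 0.0537), named after its values were seen. Trp53, which encodes p53, was at 0.32 (edgeR adjusted p = 0.0994) and Myc at 0.29 (edgeR adjusted p = 0.161).

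Among the relatives of H2-T3 and Cd1d1, 12 of 19 class Ib and CD1 genes were tested and 0 passed the test. All 12 lay below 0 under each scaling, with a median of -0.53, where 8822 of the 17155 tested genes lay below 0. In 9 of the 12 both mimic libraries lay below both controls, against 29.5% of all tested genes. The 2 highest expressed were H2-Q10 (-0.36, counts of 3733 and 3388 against 1989 and 3476) and H2-Q2 (-0.06). The largest falls, named after their values were seen, were in H2-M3 (-1.42, edgeR adjusted p = 0.127) and H2-T10 (-1.27, edgeR adjusted p = 0.0677). The 12 were all H2 genes, since Cd1d2, the CD1 gene of the list, was at 0. Reads of these genes are often shared between copies, so single values are uncertain and the 12 are not separate observations. Fcgrt, the neonatal Fc receptor, was at -0.25 and Hfe, a regulator of iron uptake, at -0.53, from a list of 3 tested class I-like genes of which 0 passed.

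B2m, the light chain that pairs with H2-T3, CD1d and MR1, stood at -0.23 on the log2 scale (standard error 0.10, edgeR adjusted p = 0.194). H2-K1, a classical class I heavy chain, was at -0.10 (edgeR adjusted p = 0.648). H2-D1, another, was at 0.23 (edgeR adjusted p = 0.204), with both mimic libraries above both controls. Of these 3 genes 0 passed. Of 11 peptide loading genes 0 passed, with 5 below 0 and 6 above. The highest expressed were the chaperones Calr (0.54, edgeR adjusted p = 0.109) and Canx (0.25, edgeR adjusted p = 0.201). The largest changes were in Psmb9 (-0.98, edgeR adjusted p = 0.0859), Tap1 (-0.79, 0.062) and Tap2 (-0.74, 0.0758), named after their values were seen. Both mimic libraries lay below both controls in 4 of the 11 and above them in 5. Of 6 genes that load lipids onto CD1d 0 passed, with Mttp, the microsomal triglyceride transfer protein, at 0.04 and Psap, the saposin precursor, at -0.04.

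Of 17 tested genes for other epithelial ligands of lymphocytes, 3 fell and 0 rose by edgeR's adjusted p, with a median log2 fold change of -0.33. Both mimic libraries lay below both controls in 13 of the 17 and above them in 1, against 29.5% and 28.9% of all tested genes. Because the list was drawn up with earlier results of these data known, these shares only describe it. The 3 that fell were among the 13, which their selection on this contrast all but fixed. Clec2h, a C-type lectin of the intestinal epithelium, went from 1356 and 1034 counts in controls to 392 and 637 (log2 fold change -1.17, standard error 0.17, edgeR adjusted p = 0.0188). Cd274, which encodes PD-L1, had 127 and 82.5 counts against 35.7 and 41.9 (-1.36, standard error 0.27, edgeR adjusted p = 0.0457). Btnl6, a butyrophilin-like gene of enterocytes, had 1017 and 907.5 counts against 499.9 and 680.3 (-0.67, standard error 0.14, edgeR adjusted p = 0.0469). Clec2h and Cd274 also met the 2-fold threshold and Btnl6 did not. The adjusted p of Cd274 was above 0.05 without control replicate 1 (edgeR adjusted p = 0.102), without mimic replicate 3 (0.149) and without mimic replicate 4 (0.0867), and that of Btnl6 without mimic replicate 3 (0.194). Btnl1, which acts with Btnl6, was at -0.32 (edgeR adjusted p = 0.102) and Cdh1, the ligand of CD103, at -0.17. Of the epithelial markers, 1 of 10 rose, the transcription factor Cdx1 (0.47, edgeR adjusted p = 0.0477), and Epcam (0.01) and Krt19 (0.02) were near 0. The marker median was -0.01, and the adjusted p of Cdx1, which stayed under 2-fold, was above 0.05 without mimic replicate 3 (edgeR adjusted p = 0.223) or mimic replicate 4 (0.0703). Krt18, a keratin of simple epithelia named after its values were seen, was at -0.60 (standard error 0.17, edgeR adjusted p = 0.0942), with both mimic libraries below both controls. With 1 library left out its log2 fold change ranged from -0.81 (without control replicate 2) to -0.36 (without control replicate 1).

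**Figure D5:**
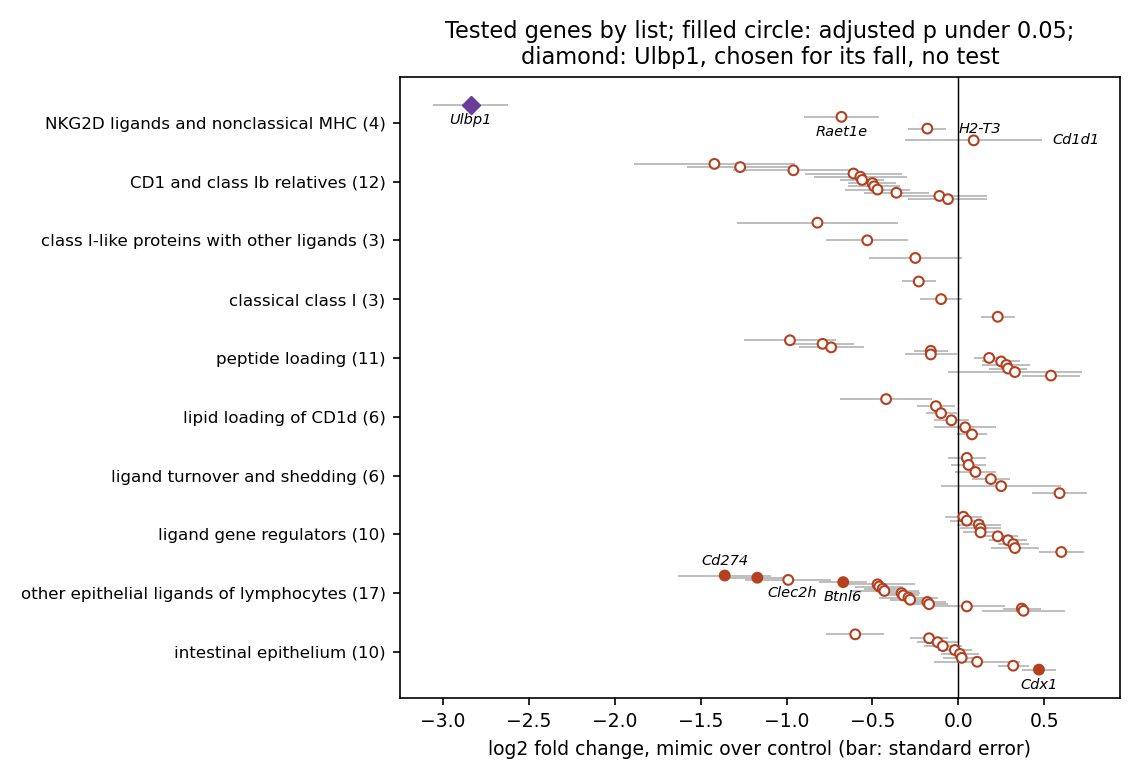
Fitted log2 fold change, mimic over control (x axis, bar: standard error), of every tested gene in each list (y axis, number of tested genes in parentheses). Filled circles have an edgeR adjusted p under 0.05 and the diamond is Ulbp1, shown without a test. Raet1e, H2-T3 and Cd1d1 lie within 1 unit of 0, the class Ib relatives all lie below 0, and the regulators all lie above 0 with TMM factors.

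The receptor side was nearly absent from these cultures. Klrk1, which encodes NKG2D, was among 11 of the 18 receptor and lymphocyte genes that were at 0 in all libraries, and Cd3e had 3, 3, 2 and 0 counts. Only Hcst passed the filter. Hcst encodes DAP10, the signalling partner of NKG2D, and had counts of 24 and 23 in controls against 6 and 8 (log2 fold change -1.68, standard error 0.43, edgeR adjusted p = 0.0769). The 17 other genes of that list summed to 8 and 8 counts in controls and 5 and 9 with the mimic. The part of lymphocyte RNA in the values of Hcst and Ulbp1 was not tested. Mesenchymal markers were also low, with 94 and 49 summed counts against 54 and 63, 3 of 8 genes at 0 and only Pdgfrb (log2 fold change 0.01) and Acta2 (-0.14) tested. Pdgfra, too low to test and named after its values were seen, had 17 and 7 counts in controls against 2 and 0. Both its mimic libraries thus lay below both controls, as in 29.5% of all tested genes. In Pdgfrb and Acta2 the groups overlapped. The part of mesenchymal cells in the values of Ulbp1 was not tested.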

How the data were processed

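Poly(A) selection is named in the sample labels, whereas the supplemental methods describe ribosomal RNA depletion. Single reads of 100 cycles were trimmed (Trimmomatic) and quantified (RSEM) on GRCm38 by the authors, who deposited unnormalised expected counts per gene and TPM. The annotation release is not given in the sources used here. There were 3 columns in each file that matched no sample and were not used.

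Expected counts were rounded and tested with edgeR 4.0.16 (R 4.3.3): filterByExpr, TMM factors, estimateDisp and the quasi-likelihood test (legacy = FALSE), with Benjamini-Hochberg adjustment over 17155 genes. Standard errors are the size of the log2 fold change divided by the square root of F. The steps were tested on simulated data. Replicates differed by more than counting noise (chi-square per degree of freedom 30.4 for controls, 16.5 for mimic), so replicate spread limits the precision, and for genes with few counts depth limits it too. Symbols matched 55141 of 55487 genes. GENCODE mouse release 21 gave positions and transcript sequences, and RefSeq the miRNA.

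The genes and lists were chosen with earlier results of these data known. Named are the 8 genes, listed genes with an adjusted p under 0.05, the 2 most expressed per list, the 3 profiles nearest Ulbp1 (mean normalised CPM of at least 1) and 5 neighbours on each side. March9, Krt18, Pdgfra, E2f2, H2-M3, H2-T10, H2-D1, Psmb9, Tap1, Tap2, Cd1d2, Klrk1 and the flanking gene Pdx1 fall outside this rule and were chosen later. Alternatives were edgeR's exact, likelihood-ratio, robust and (added after seeing the data) legacy fits, DESeq2 1.42.0, other scaling factors and filters, limma 3.58.1 on log2(TPM + 1) and log2(TPM + 0.1), and leaving out each library. A fold change from TPM includes the pseudocount, which shrinks changes of genes at low levels. Plots used matplotlib 3.10.9.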

Additional observations from a re-analysis of the deposited data

How the results depend on the processing

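The number of genes called, 354, became 730 with edgeR's exact test, 773 with the likelihood-ratio test and 158 with no filter on low counts. On TPM with limma it was 71 for log2(TPM + 1) and 27 for log2(TPM + 0.1) with a filter, and 5 for log2(TPM + 1) without one. Leaving out 1 library gave between 256 and 834 calls, with 834 without control replicate 2 and 532 without mimic replicate 4. A group then had 1 library, which is assumed to vary like the other group. The cause was not tested.

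Ulbp1 was at -1.58 on log2(TPM + 1), with or without a filter, where the pseudocount is large beside its TPM. In the other 15 settings it stayed within 0.15 of the log2 fold change of -2.84, and between -2.95 and -2.73 with 1 library left out. The margin of 0.15 is the SD of the log2 normalised CPM of Ulbp1 within groups. The standard error of its log2 fold change was 0.22. The genes other than Ulbp1 were called 0 times in all 17 settings, where a gene without an adjusted p counted as not called. Raet1e, H2-T3 and Cd1d1 stayed under a 2-fold change in every setting that held them, so for these genes this 0 was all but fixed. Raet1e ranged from -0.89 to -0.43 and H2-T3 from -0.25 to -0.12. Cd1d1 ranged from -0.18 to 0.50, with -0.18 without control replicate 2 and -0.04 without mimic replicate 4. An adjusted p under 0.05 was lost in 4 settings for Clec2h, 5 for Btnl6, 6 for Cd274 and 8 for Cdx1. It was gained in 2 for Hcst (exact test 0.0159, likelihood-ratio test 0.0117), 3 for March9 (0.0405 to 0.0431) and 4 for Krt18 (0.00461 to 0.0257). No paired analysis was possible because the groups share no replicate numbers. Depth limits Raet1d, H60b, H60c and Mr1, where 3 counts are 0.0787 to 0.0964 CPM.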
